A study of Mus musculus with 6 samples.

Results

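Insulin and the insulin-like growth factors act through a small set of secreted and membrane proteins, and 10 genes of that set were followed here in neonatal mouse hearts: the receptors Insr and Igf1r, the adaptors Irs1 and Irs2, the ligand Igf1, and the binding proteins Igfbp2, Igfbp3, Igfbp4, Igfbp5 and Igfbp7. They were taken by name from the 52550 mouse genes of the count files, and each of the 10 matched 1 Ensembl identifier in the GRCm38 annotation. Irs2 and Igfbp7 were chosen by their CPM values (defined below), which had been seen to differ between these libraries, so both are described without a test. The other 8 are read from a test run over all genes.

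The study profiled whole hearts at postnatal day 7 in 2 groups of 3 libraries, which the labels call biological replicates. The GR-cKO group lacks the glucocorticoid receptor in cardiomyocytes, and the other group is labelled ctrl. No source used here gives the Cre driver, the deleted part of the receptor gene or the genotype of the controls. Libraries were made with a 3′ mRNA kit that yields reads from the 3′ end of polyadenylated transcripts, so a level in CPM, reads scaled to the depth of the library, depends on how many transcripts there were, whatever their length.

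In this pathway insulin and IGF-1 bind related receptor tyrosine kinases on the cell surface. The activated receptors phosphorylate insulin receptor substrates, which recruit PI3 kinase and so activate AKT, and AKT in turn promotes growth and glucose uptake and keeps FoxO transcription factors out of the nucleus. IGF-binding proteins are secreted, hold IGFs in blood and tissue and set how much ligand reaches the receptor. In the heart the pathway is known for driving growth of cardiomyocytes around birth and for their handling of fuel.

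Libraries held between 18135540 and 22999192 reads, and the 10 genes together took between 0.0818 and 0.109% of the mouse gene reads of a library. All 8 cardiomyocyte markers were detected, with a summed level of 45157 to 47475 CPM in control hearts, against 44945 to 56394 CPM with the deletion. Nr3c1, the gene of the receptor, was at 115 ± 15.8 CPM in control hearts, against 54.3 ± 4.47 CPM with the deletion (SD, n = 3 each, log2 fold change -1.08, edgeR adjusted p = 0.00101), and it was the 1 gene called among 14860 tested. GR-cKO replicate 3 stood apart from the others in the share of Gm42418, a transcript that overlaps ribosomal RNA sequence, at 10.9% of mouse gene reads against 5.47 to 7.69% elsewhere. By Xist and Y-linked genes each group held 1 female and 2 male libraries.

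None of the 8 passed edgeR's test (p-values from 0.998 to 1, adjusted over all genes), where 0.00673% of tested genes were called. At an unadjusted p under 0.05 the count was also 0 of 8, against 4.20% of all tested genes (2.07% higher and 2.13% lower in GR-cKO), and DESeq2 and limma voom likewise called 0 of 8. The GR-cKO and control libraries overlapped for all 10 genes, while for 9.97% of tested genes they did not (4.70% higher and 5.27% lower). The median log2 fold change of the 8 genes was -0.10, beside 0.01 over all tested genes. All 10 genes passed the filter on low counts.

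**Figure D1:**
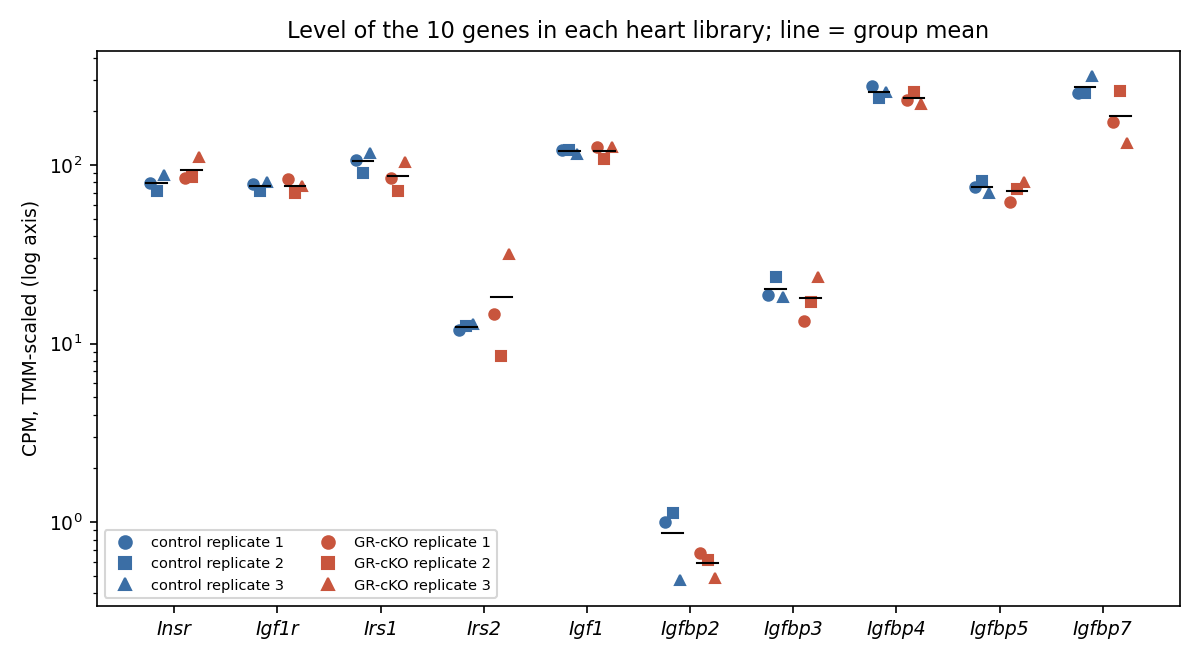
Level of each of the 10 genes in each library, in CPM on a log axis, with control libraries in blue, GR-cKO libraries in red, a marker shape for each replicate number and a line at each group mean. Igfbp4 and Igfbp7 sit near 250 CPM in control hearts, Igfbp2 near 1 CPM, and the point far above its group is Irs2 in GR-cKO replicate 3 (31.95 CPM).

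The 10 genes spanned a wide range of levels, ordered here by mean CPM over the 6 libraries. Igfbp4 (246.7) and Igfbp7 (232) led, followed by Igf1 (120.1), Irs1 (95.8), Insr (86.8), Igf1r (76.6) and Igfbp5 (73.7), then Igfbp3 (19.2) and Irs2 (15.4), and last Igfbp2 (0.729). Steps without overlap between the libraries of neighbours fell below Igfbp7, below Igfbp5 and below Irs2. Within the run from Igf1 to Igfbp5 the ranges of neighbours overlapped, as they did for Igfbp4 with Igfbp7 and for Igfbp3 with Irs2.

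Insr encodes the insulin receptor and Igf1r the receptor of IGF-1. Insr (ENSMUSG00000005534, chromosome 8, 3122061 to 3279617, minus strand) read 79.5, 71.6 and 88.4 CPM in the control hearts, against 84.4, 85.7 and 111 CPM in the GR-cKO hearts, here and below in the order of replicates 1, 2 and 3. GR-cKO replicate 3 was above every control library, and the other GR-cKO libraries lay within the control range. Insr differed by 0.23 on the log2 scale (95% interval -0.04 to 0.51, edgeR adjusted p = 0.998), and it was 0.09 without GR-cKO replicate 3. Igf1r (ENSMUSG00000005533, chromosome 7, 67952827 to 68233668, plus strand) stood at 78.0, 71.8 and 80.8 CPM in control and 83.8, 69.5 and 75.9 CPM in the GR-cKO hearts. Its libraries were interleaved between the groups. The log2 fold change of Igf1r was -0.01 (SE 0.116), and its 95% interval ran from -0.25 to 0.23.

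A ratio of reads within 1 library does not depend on how libraries are scaled. The reads of Insr per read of Igf1r, a ratio chosen after the values were seen, were 1.02, 0.997 and 1.09 in control hearts and 1.01, 1.23 and 1.47 in those with the deletion. The receptors were thus read about equally often in control hearts, and the ratio was highest in GR-cKO replicates 2 and 3, while GR-cKO replicate 1 lay within the control range.

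Irs1 and Irs2 encode the main insulin receptor substrates, the adaptors that link the receptors to PI3 kinase. Irs1 (ENSMUSG00000055980, chromosome 1, 82233101 to 82291416, minus strand) stood at 107, 90.1 and 117 CPM in control and 84.4, 72.0 and 104 CPM in the GR-cKO hearts. GR-cKO replicates 1 and 2 were below every control library, and GR-cKO replicate 3 lay among the controls. The log2 fold change of Irs1 was -0.28 (SE 0.139, 95% interval -0.57 to 0.01, edgeR adjusted p = 0.998), moving to -0.43 without GR-cKO replicate 3 and to -0.16 without GR-cKO replicate 2. On the opposite strand Irs1 shares exon sequence with Gm9747, which had 0 reads in every library.

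Irs2 (ENSMUSG00000038894, chromosome 8, 10984681 to 11008458, minus strand) had 274, 244 and 246 reads in control hearts, against 261, 180 and 594 reads in the GR-cKO hearts. In CPM these were 12.0, 12.5 and 12.9 in control and 14.6, 8.49 and 31.95 in GR-cKO hearts. The control libraries lay close together, and the GR-cKO libraries were on both sides of them. GR-cKO replicate 3 stood at 2.64 times the mean of the other 5 libraries, which restates the difference it was chosen by. Ccn2, a matrix protein gene induced by stretch, and Myh7, the fetal myosin heavy chain, were also high in that library, at 295.7 CPM against 77.1 to 100.1 and at 274 CPM against 72.0 to 132. Both were named after their values were seen.

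The coefficient of variation of Irs2, which describes the values it was chosen by, was 3.72% in control and 66.4% in GR-cKO hearts. Counting error alone was 6.27 and 5.38% in the groups, so the control libraries lay closer together than counting would give on average. The log2 fold change between the groups was 0.55, and without GR-cKO replicate 3 it was -0.12, so its direction rested on that library. The high share of Gm42418 in the same library (10.9%) moved with Irs2, and its part in the value was not tested. The exon of Irs2 overlaps the antisense gene 9530052E02Rik over 162 bases, and that gene had at most 10 reads in a library. Irs2 had 0.120 ± 0.0164 reads per read of Irs1 in control hearts (SD, n = 3), and 0.173, 0.118 and 0.308 in the GR-cKO hearts in order of replicate.

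The 5 genes whose log2 CPM followed Irs2 most closely over the 6 libraries were Aggf1 (r = 0.996), Lrrc40 (0.996), Spg11 (0.993), Usf1 (0.989) and Nr1h2 (0.989), among 8418 genes compared. They too were highest in GR-cKO replicate 3 and lowest in GR-cKO replicate 2, but with smaller steps: Usf1, an E-box binding factor, was at 9.38 to 12.5 CPM in 5 libraries and at 17.5 CPM in GR-cKO replicate 3. Nr1h2, a liver X receptor, was at 19.7 to 21.8 CPM and then 26.3 CPM. Without GR-cKO replicate 3 the r of these 5 genes with Irs2 was between 0.940 and 0.979 over 5 libraries. These r values were the highest found in a search and describe the choice.

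The promoters of the adaptors are shown because they share an arrangement that few promoters hold. Each sequence is the 250 bases before the RefSeq start (GRCm38.p6), on the gene's own strand, which is the minus strand for each of them. Capitals mark matches on either strand to the E-box CACGTG, to TGTTTTG, a core that FoxO factors are known to bind in insulin-responsive promoters, to the GC box GGGCGG, or to TGTTCT, the short site of the glucocorticoid receptor. The Irs2 window lies at chr8:11008930-11009179, that of Irs1 at chr1:82291440-82291689 and that of Irs4, a further member of the adaptor family, at chrX:141725218-141725467.
Irs2: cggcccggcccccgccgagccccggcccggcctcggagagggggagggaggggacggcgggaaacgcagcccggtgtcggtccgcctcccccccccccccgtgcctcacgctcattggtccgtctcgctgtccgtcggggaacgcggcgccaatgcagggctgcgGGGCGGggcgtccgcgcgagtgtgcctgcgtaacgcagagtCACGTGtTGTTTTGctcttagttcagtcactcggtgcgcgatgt
Irs1: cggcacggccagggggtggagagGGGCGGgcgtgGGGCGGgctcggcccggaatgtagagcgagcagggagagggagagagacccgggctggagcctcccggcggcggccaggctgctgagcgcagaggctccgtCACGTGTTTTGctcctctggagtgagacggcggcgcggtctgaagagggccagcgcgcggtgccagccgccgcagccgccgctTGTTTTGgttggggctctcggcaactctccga
Irs4: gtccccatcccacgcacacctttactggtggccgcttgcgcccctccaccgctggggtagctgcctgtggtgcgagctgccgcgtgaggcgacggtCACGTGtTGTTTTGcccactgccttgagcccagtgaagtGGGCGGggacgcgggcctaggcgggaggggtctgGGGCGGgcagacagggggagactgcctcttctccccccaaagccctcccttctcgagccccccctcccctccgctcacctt

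In Irs2 the E-box began 44 bases before the start and TGTTTTG 37 bases before it, and in Irs4 these positions were 154 and 147 bases before the start. In Irs1 both motifs overlapped, with starts 115 and 111 bases before the gene's start. On the gene's strand, TGTTTTG beginning 1 to 7 bases after the start of CACGTG was found in 3 of 32851 windows of 300 bases (0.00913%), namely those of Irs1, Irs2 and Irs4. The spacing was set after the sequences of Irs1 and Irs2 had been seen. Taken singly, CACGTG was in 7.15% and TGTTTTG in 6.28% of all windows, and both were in 0.408%. The window of Irs3 held neither. Irs4 had 0 reads in all 6 libraries and Irs3 had 0 to 4. A match describes letters and is not a binding site. In GR-cKO replicate 3, where Irs2 was highest, Irs1 lay within the control range.

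**Figure D2:**
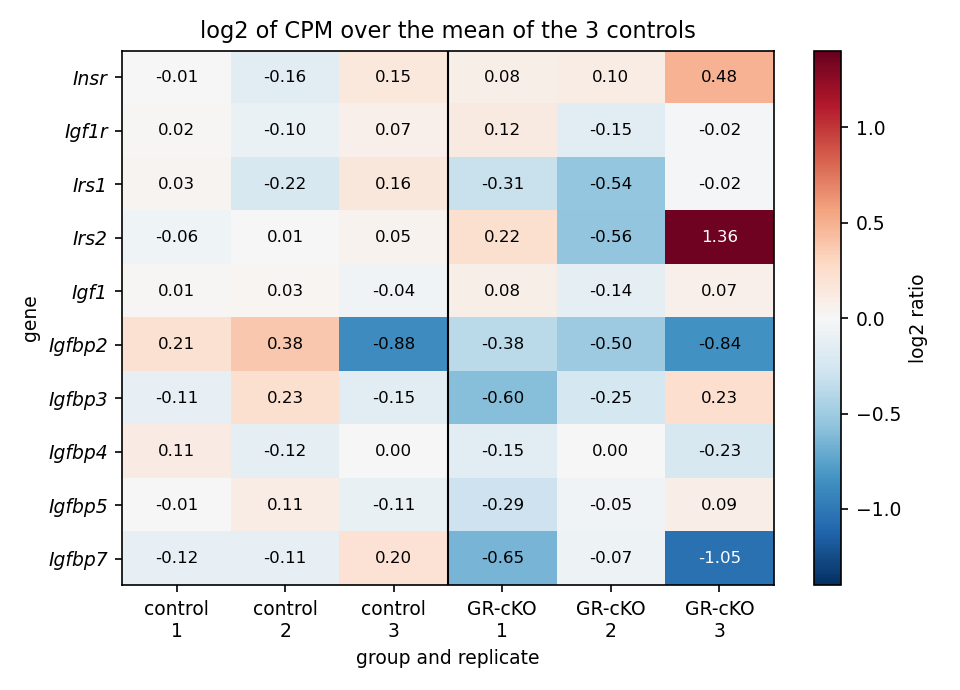
Each cell gives the log2 ratio of a gene's CPM in 1 library to its mean in the 3 control libraries, with genes in rows and libraries in columns, red for higher and blue for lower. GR-cKO replicate 3 holds both the highest value (1.36, Irs2) and the lowest (-1.05, Igfbp7), and Igf1 stays between -0.14 and 0.08 in every library.

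Igf1 encodes IGF-1, the ligand of Igf1r, made in many tissues as well as in liver. Igf1 (ENSMUSG00000020053, chromosome 10, 87858265 to 87937042, plus strand) stood at 121, 122 and 116 CPM in control hearts, against 127, 109 and 126 CPM in the GR-cKO hearts. The groups overlapped fully and had means of 119.7 ± 3.24 and 120.5 ± 10.2 CPM (SD, n = 3 each). Igf1 differed by 0.01 on the log2 scale (SE 0.112, edgeR adjusted p = 1), and the 95% interval ran from a fold of 0.855 to 1.19. Igf2, the fetal ligand of the same receptor, was the more abundant transcript. It was at 638, 646 and 644 CPM in control hearts, against 645, 609 and 637 CPM in the GR-cKO hearts, or 5.37 ± 0.156 and 5.25 ± 0.307 reads per read of Igf1 (SD, n = 3 each). The 95% interval of the Igf2 fold was 0.845 to 1.14.

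Igfbp4 and Igfbp7 were the most abundant binding proteins. Igfbp4, which restrains IGF action until it is cleaved by the protease PAPP-A, lies on chromosome 11 (ENSMUSG00000017493, 99041244 to 99054392, plus strand). It was at 278, 237 and 257 CPM in control hearts, against 232, 257 and 219 CPM in the GR-cKO hearts. GR-cKO replicates 1 and 3 were just below the lowest control, and GR-cKO replicate 2 was at the middle control. The log2 fold change of Igfbp4 was -0.12 (SE 0.114, 95% interval -0.36 to 0.12, edgeR adjusted p = 0.998).

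Igfbp7 encodes a secreted protein with low affinity for IGFs that is abundant in vessel walls. Igfbp7 (ENSMUSG00000036256, chromosome 5, 77349240 to 77408041, minus strand) had 5784, 4936 and 6019 reads in control hearts, against 3135, 5520 and 2463 reads in the GR-cKO hearts. Its levels were 253, 254 and 316 CPM in control and 175, 260.3 and 132 CPM in GR-cKO hearts. GR-cKO replicates 1 and 3 were well below all controls, and GR-cKO replicate 2 was inside the control range. The group means were 274 ± 36.0 and 189 ± 65.1 CPM (SD, n = 3 each), which is -0.53 on the log2 scale, and -0.84 if GR-cKO replicate 2 is left out or -0.33 if replicate 3 is.

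The coefficient of variation of Igfbp7 was 13.2% in control and 34.4% in GR-cKO hearts, again a description of the values that chose it. It stood at 0.527 times the mean of the other 5 libraries in GR-cKO replicate 3 and at 0.720 times in GR-cKO replicate 1.

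**Figure D3:**
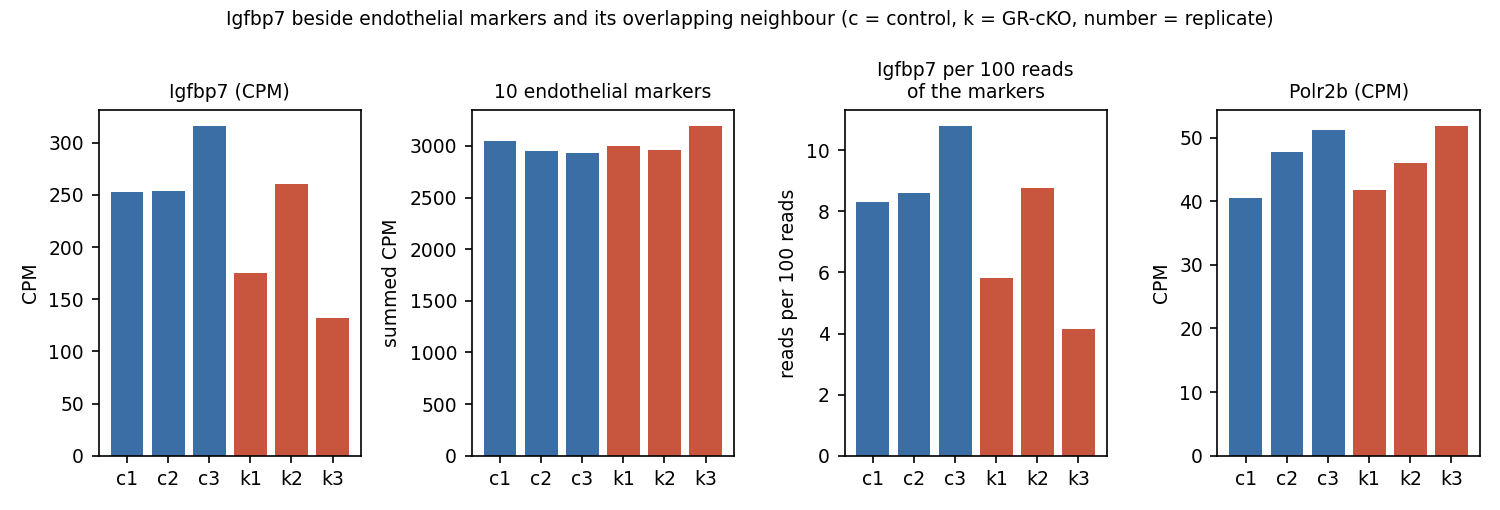
Bars give, for each library (c for control, k for GR-cKO, with the replicate number), Igfbp7 in CPM, the summed CPM of 10 endothelial markers, the reads of Igfbp7 per 100 reads of those markers, and Polr2b in CPM, all from 0. Igfbp7 is low in k1 and k3, and the endothelial sum is between 2928 and 3189 CPM in all 6 libraries.

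None of 10 endothelial markers was called by edgeR, DESeq2 or limma voom, and their log2 fold changes went in both directions. The summed level of 10 endothelial markers, Pecam1 and Cdh5 among them, was 2928 to 3046 CPM in control hearts, against 2965 to 3189 CPM with the deletion, and none of the 10 was at 0. On the log2 scale 6 of the 10 were below 0 and 4 above it, around a median of -0.04. Vwf was lower in every GR-cKO library than in any control (28.6 to 32.0 against 17.8 to 23.7 CPM), while Egfl7 and Eng were higher without overlap. Groups thus did not overlap for 30% of the 10, beside 9.97% of all tested genes. The part of these markers in Igfbp7 was not tested. Per 100 reads of these markers Igfbp7 had 8.30, 8.60 and 10.8 reads in control and 5.83, 8.78 and 4.15 reads in the GR-cKO hearts. Mural cell markers, 8 in all, summed to 1639 to 1881 CPM in control hearts, against 1932 to 2163 CPM with the deletion. Of these, Acta2 alone did not overlap between the groups (719.5 to 926 against 1089.5 to 1124.5 CPM), whereas 5 of the 8 had negative log2 fold changes and the median was -0.03. The 9 fibroblast markers summed to 4342 to 5290.1 CPM and to 4116 to 4304 CPM, so that the GR-cKO range lay below the control range. Of the 9, 7 had negative log2 fold changes, as had 7241 of all 14860 tested genes. Groups did not overlap for 33.3% of the 9 (1 higher and 2 lower), beside 9.97% of all tested genes. The part of the fibroblast markers in any level given here was not tested. In whole tissue, fewer cells of a type and less RNA per cell cannot be told apart.

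At its 3′ end Igfbp7 overlaps the 3′ end of Polr2b, a subunit gene of RNA polymerase II on the opposite strand, over 85 bases. Reads in that stretch are uncertain where the counting did not use strand. Polr2b was at 40.5, 47.8 and 51.2 CPM in control and 41.8, 45.9 and 51.7 CPM in the GR-cKO hearts, with no library apart.

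The 5 genes most like Igfbp7 over the 6 libraries were Coq5 (r = 0.995), Gnas (0.987), Medag (0.981), Mrpl45 (0.979) and Plcb4 (0.979). Medag, a gene named for a part in the formation of fat cells, was at 10.8 to 12.8 CPM in control and 7.87, 11.2 and 5.86 CPM in the GR-cKO hearts. Gnas, the gene of the stimulatory G protein, was at 312 to 336 CPM in control hearts, against 252, 314 and 222 CPM with the deletion. Both were low in GR-cKO replicates 1 and 3, as Igfbp7 was. None of the 5 had exactly the same order of libraries as Igfbp7.

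The promoter of Igfbp7, the other gene chosen by its values, is printed as well. Neither CACGTG nor TGTTTTG occurs in it, as in most windows, since they were in 7.15% and 6.28% of all windows. The printed sequence covers the 250 bases before the RefSeq start (chr5:77408046-77408295, GRCm38.p6, minus strand), with the 4 GC boxes in capitals.
Igfbp7: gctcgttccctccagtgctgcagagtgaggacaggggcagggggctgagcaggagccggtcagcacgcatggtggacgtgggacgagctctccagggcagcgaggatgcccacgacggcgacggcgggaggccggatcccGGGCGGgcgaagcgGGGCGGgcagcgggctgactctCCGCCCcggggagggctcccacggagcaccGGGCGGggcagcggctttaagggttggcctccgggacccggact

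The GC box GGGCGG was in 35.7% of all windows and in those of Igf1r, Irs1, Irs2, Igfbp2 and Igfbp7. RefSeq windows were found for 9 of the 10 genes, and Igfbp2 had 2 of them. The short site TGTTCT was in 6233 of the 32851 windows and, among these genes, in 1 window of Igfbp2. The full palindromic element, AGAACA and TGTTCT with 3 bases between them, was in 0.00913% of windows and in none of these genes. The FoxO site GTAAACA was in 3.65% of windows and also in none of them. These counts speak only of 300 bases around each start. The windows of Igf1r and Irs2 were among the richest in CG pairs, with 48 and 41 against a median of 7 over all windows, and that of Igf1 had 6.

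Igfbp5 and Igfbp3 bind IGFs with high affinity, in matrix and in blood respectively. Igfbp5 (ENSMUSG00000026185, chromosome 1, 72857932 to 72874884, minus strand) stood at 75.2, 81.3 and 70.1 CPM in control and 61.9, 73.2 and 80.4 CPM in the GR-cKO hearts. GR-cKO replicate 1 was the lowest library, and the other GR-cKO libraries lay within the control range. The log2 fold change of Igfbp5 was -0.07 (SE 0.123, 95% interval -0.33 to 0.19, edgeR adjusted p = 0.9986). Igfbp3 (ENSMUSG00000020427, chromosome 11, 7206086 to 7213923, minus strand) stood at 18.8, 23.7 and 18.3 CPM in control and 13.3, 17.1 and 23.8 CPM in GR-cKO hearts. Here too GR-cKO replicate 1 was lowest, while GR-cKO replicate 3 was level with the highest control. The log2 fold change of Igfbp3 was -0.16 (SE 0.201, edgeR adjusted p = 0.998), and it was -0.41 if GR-cKO replicate 3 is left out or 0.01 if replicate 1 is.

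Igfbp2, a binding protein that is abundant in fetal tissues and in blood, was barely read. Igfbp2 (ENSMUSG00000039323, chromosome 1, 72824503 to 72852474, plus strand) had 23, 22 and 9 reads in control hearts, against 12, 13 and 9 reads in the GR-cKO hearts. Counting error alone was 23.6 and 29.7% in the groups, and the 95% interval of its fold ran from 0.248 to 1.86. It lies tail to tail with Igfbp5, with 5457 bases between the genes, and its mean level of 0.729 CPM compares with 73.7 CPM for that neighbour. Igfbp1, which lies tail to tail with Igfbp3 on chromosome 11 at a distance of 3539 bases, had 1 read in all libraries together.

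**Figure D4:**
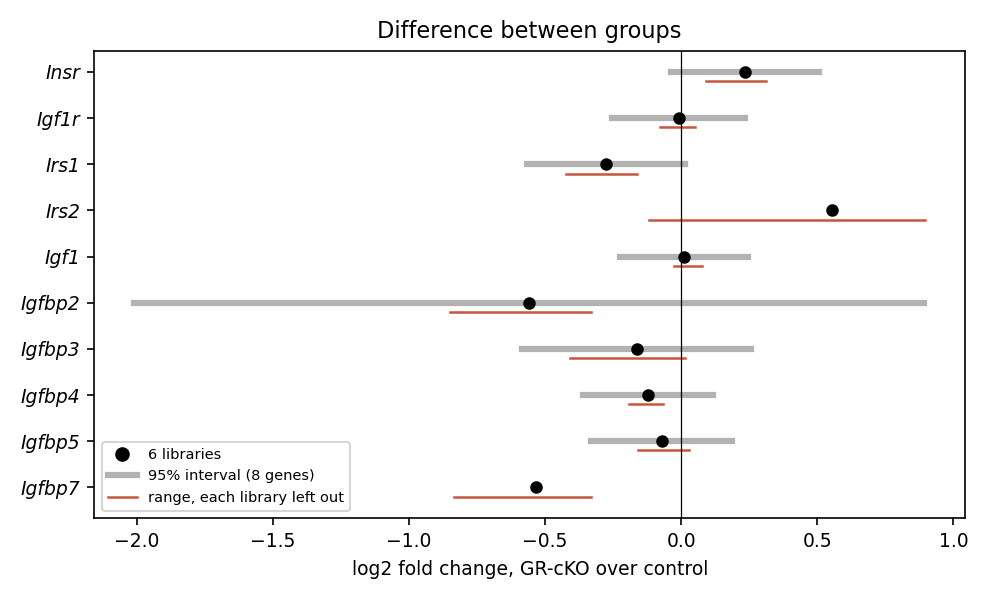
Points give the log2 fold change of each gene, GR-cKO over control, grey bars the 95% interval of the 8 tested genes, and thin red lines the range when each library is left out in turn. The intervals of all 8 genes include 0, and the red line of Irs2 runs from -0.12 to 0.90.

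Around the 10 genes, 111 other genes of the pathway were sorted into 12 roles, and 104 of them could be tested. None was called by edgeR, DESeq2 or limma voom. At an unadjusted p under 0.05 edgeR had 1 higher and 5 lower (5.77% of the 104, beside 4.20% of all tested genes). Groups did not overlap for 13 of them (12.5%, beside 9.97%), so both shares were near the background. Of the 104 genes 46 had a positive and 58 a negative log2 fold change, with a median of -0.03. Every tested gene named below had an edgeR adjusted p of at least 0.9977.

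**Figure D5:**
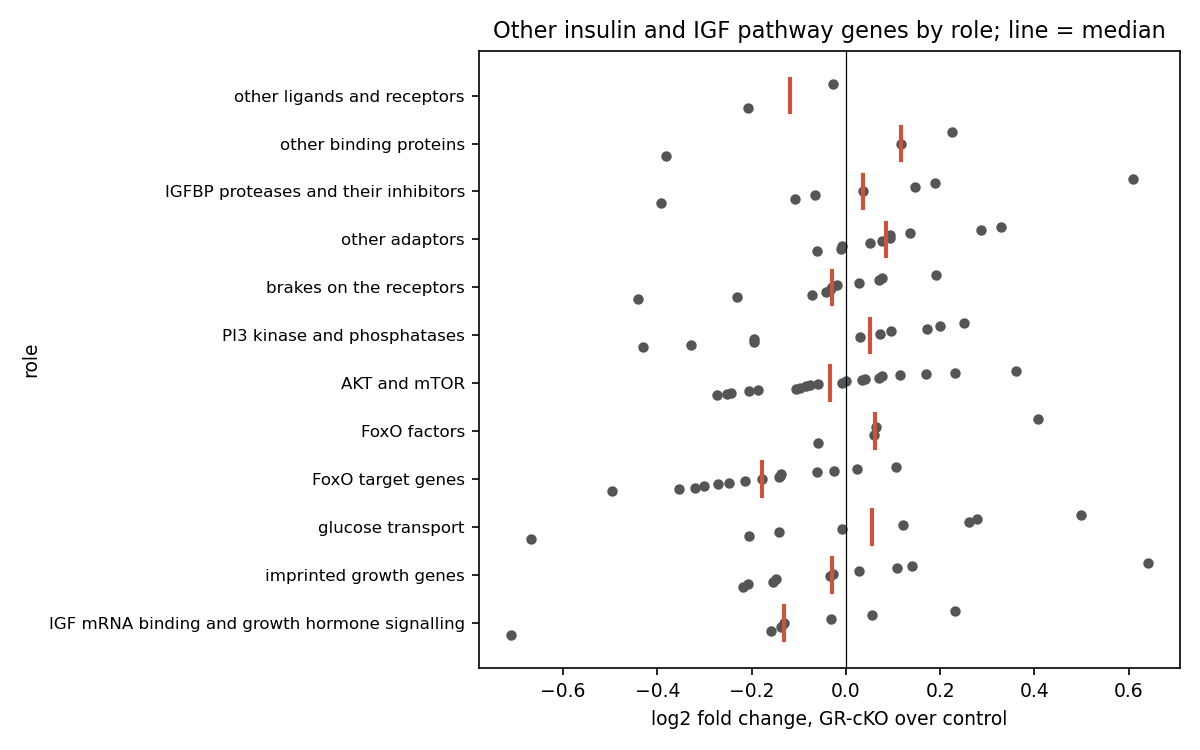
Each point is the log2 fold change, GR-cKO over control, of 1 tested gene of the wider pathway, set out by role, with a line at the median of the role. Medians lie between -0.18 for FoxO target genes and 0.12 for other binding proteins, and the outermost points are Igf2bp1 (-0.71) and Dlk1 (0.64).

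Of the other ligands and receptors, insulin itself was close to absent, with Ins1 at 0 reads and Ins2 at 0 to 8 reads in a library. Igf2r, which clears IGF-2 from the cell surface, was at 243, 203 and 246 CPM in control hearts, against 197, 209 and 195 CPM in the GR-cKO hearts. GR-cKO replicates 1 and 3 lay below all controls and GR-cKO replicate 2 did not. Its log2 fold change was -0.21 (SE 0.115). Igfbpl1, a gene related to the binding proteins, was at 41.0 ± 5.25 and 47.9 ± 6.75 CPM (SD, n = 3 each).

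Enzymes that cut binding proteins, and their inhibitors, were read unevenly. Htra1, a secreted protease that cleaves IGF-binding proteins, was at 147 ± 15.4 CPM in control hearts, against 151 ± 35.1 CPM with the deletion (SD, n = 3 each). Stc2, an inhibitor of PAPP-A, was at 6.16 ± 0.978 and 4.68 ± 0.872 CPM. Pappa, the gene of PAPP-A itself, had 0 to 18 reads in a library.

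The 10 further adaptors that could be tested had a median log2 fold change of 0.08. Sh2b1, which binds activated receptors, was at 32.1, 28.4 and 30.5 CPM in control and 29.9, 38.0 and 46.5 CPM in the GR-cKO hearts. Its highest library was again GR-cKO replicate 3, and the log2 fold change was 0.33 with it and 0.16 without it. The brakes on the receptors had a median of -0.03 over 11 genes. Nedd4, a ubiquitin ligase, was at 323 ± 17.6 and 307 ± 7.38 CPM (SD, n = 3 each). Ide, the protease that degrades insulin, was at 130, 118 and 173 CPM in control and 81.7, 120.3 and 108 CPM in the GR-cKO hearts, a log2 fold change of -0.44 (SE 0.157). GR-cKO replicate 2 was above the lowest control.

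Of the 10 genes of PI3 kinase and phosphatases, 3 were lower in every GR-cKO library than in any control. Pik3r1, the main regulatory subunit of PI3 kinase, was at 93.7 to 96.0 CPM in control and 77.8 to 85.6 CPM in GR-cKO hearts. Pik3cb, a catalytic subunit, was at 9.04 to 11.4 and 7.64 to 8.66 CPM. Phlpp1, a phosphatase of AKT, was at 22.7 to 30.7 and 19.2 to 20.2 CPM, a log2 fold change of -0.43 (SE 0.158). Pik3r1 and Pik3cb were named after their values were seen. Inppl1, the most abundant gene of the role and also a phosphatase of PI3 kinase products, was at 251 ± 16.8 and 268 ± 25.2 CPM (SD, n = 3 each).

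Of the 20 genes of AKT and mTOR signalling 11 had a negative log2 fold change, and the median was -0.03. Gsk3b, a kinase that AKT inhibits, was at 194 ± 30.9 and 209.8 ± 29.8 CPM (SD, n = 3 each). Rheb, the direct activator of mTOR, was at 43.2 ± 7.34 and 35.7 ± 1.69 CPM. Of the FoxO factors Foxo1 was at 59.5 ± 3.27 and 62.2 ± 4.35 CPM, and Foxo6 at 9.56 ± 3.31 and 12.7 ± 0.971 CPM.

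Genes known as FoxO targets had 13 of 15 log2 fold changes below 0, with a median of -0.18. Over all 14860 tested genes 7241 were below 0 and the median was 0.01. None of the 15 was called, and 2 (13.3%) had an edgeR unadjusted p under 0.05, beside 4.20% of all tested genes. The same 2 did not overlap between the groups, beside 9.97%. Sesn1, a stress-induced brake on mTOR, was at 48.5, 39.4 and 43.5 CPM in control and 35.5, 35.5 and 31.8 CPM in the GR-cKO hearts, so the groups did not overlap (log2 fold change -0.36, SE 0.133). Sesn3, of the same family and named after its values were seen, was at 28.0 to 29.6 and 20.1 to 25.1 CPM. Txnip, an inhibitor of glucose uptake and the most abundant gene of the role, was at 1878 ± 390.3 and 1705 ± 159 CPM (SD, n = 3 each).

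Glucose transport genes had a median of 0.06. Slc2a4, the insulin-responsive transporter GLUT4, was at 127, 131 and 150.5 CPM in control and 141, 132.5 and 216.5 CPM in the GR-cKO hearts. The high value belonged to GR-cKO replicate 3, without which the log2 fold change was 0.01 in place of 0.26. Slc2a8, an intracellular transporter, was at 9.64 ± 2.55 and 13.6 ± 3.36 CPM (SD, n = 3 each).

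Imprinted growth genes included both genes of the Igf2 domain. H19, the maternally expressed RNA beside Igf2, was at 875, 755 and 875 CPM in control hearts, against 986, 878 and 895 CPM in the GR-cKO hearts. The groups did not overlap, by a margin smaller than the spread within either (log2 fold change 0.14, SE 0.109). Dlk1, an imprinted inhibitor of differentiation, was at 22.2, 23.8 and 19.2 CPM in control and 24.3, 30.7 and 46.8 CPM in GR-cKO hearts. All GR-cKO libraries were higher, GR-cKO replicate 3 most, and the log2 fold change of 0.64 (SE 0.198) was 0.34 without that library. Igf2bp1, a fetal RNA-binding protein that acts on Igf2 mRNA, was at 3.98, 4.57 and 4.30 CPM in control and 2.74, 2.69 and 2.42 CPM in GR-cKO hearts, from 82 to 91 and 45 to 57 reads. The groups stood apart (log2 fold change -0.71, SE 0.319), though without passing the test over all genes. Ghr, the growth hormone receptor, was at 72.2 ± 12.4 and 75.0 ± 7.08 CPM (SD, n = 3 each).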

How the data were processed

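Each library came as 1 table of raw counts made by the authors, with a whole number of reads for every Ensembl gene. Per the submitters' processing notes, cutadapt 1.16, STAR 2.5.4a and featureCounts 1.6.2 were among the tools, as was DESeq2 1.18.1, and GRCm38 was the build. No source used here gives the annotation release or says whether counting used strand. Symbols and positions came from GENCODE M21 of the same build.

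The 99 spike-in rows entered neither library sizes nor tests. In R 4.3.3, edgeR 4.0.16 kept 14860 genes with filterByExpr, scaled libraries by TMM and tested GR-cKO against control with its quasi-likelihood F test (robust dispersion, Benjamini-Hochberg adjustment over all tested genes, threshold 0.05). CPM values are relative to the TMM-scaled reads of tested genes, and log2 CPM used a prior count of 2. DESeq2 1.42.0 and limma 3.58.1 served as alternatives, and the fit was tested on simulated data. P-values weigh the difference between groups against the spread between these libraries, which edgeR moderates across genes. Counting errors cover counting alone.

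The 10 genes and all lists were chosen with earlier results of these data known. Genes named beyond the 10 were Nr3c1, the most abundant gene and the gene of smallest p in each of 12 roles, and the 5 tested genes of at least 10 mean CPM with the highest Pearson r to Irs2 and to Igfbp7. Others are marked as named after their values were seen, apart from markers, genes used to check libraries, neighbouring genes and genes at or near 0 reads. Some genes that these rules would name are not reported here.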

Additional observations from a re-analysis of the deposited data

How the results depend on the processing

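Scaling, filters, tools, a sex term and single left-out libraries were varied. The count of 0 called among the 8 genes, and of 0 among the 104 other pathway genes, held under each of these for the genes tested there, which were 7 and 103 with at least 10 reads in every library (Igfbp2 was left out) and 8 and 108 without a filter. Over all genes the count of 1 was 2 by library totals, 2 with at least 10 reads in every library, 4 by DESeq2 and 10 without a filter on low counts. It was 1 to 2 with each library left out, and 2 without GR-cKO replicate 2 or 3. At an unadjusted p under 0.05 the count of 0 among the 8 genes was less firm. It was 1 with a replicate block, by library totals, without a filter on low counts and without control replicate 2. Without GR-cKO replicate 3 it was 2. On the log2 scale Igf1r turned to 0.032 and Igf2 to 0.019 with spike-in scaling, and Igf1 to -0.031 and Htra1 to -0.016 by library totals, and the cause was not tested. Leaving out 1 library turned the sign within these ranges: Igf1r -0.076 to 0.052, Irs2 -0.12 to 0.90, Igf1 -0.026 to 0.075, Igfbp3 -0.41 to 0.015, Igfbp5 -0.16 to 0.027, Htra1 -0.17 to 0.16, Gsk3b -0.0078 to 0.23, Txnip -0.27 to 0.028 and Ghr -0.080 to 0.14. Same-numbered libraries of both groups deviated together only weakly (r of 0.062, 0.056 and 0.014 across genes, each under 0.1), though 2 of 3 control libraries matched their own number best. They were not taken as a pairing, and with a replicate block 1 gene was called, as without it. Of the 5 genes most like Irs2, 2 had its order of libraries by Spearman's rho, and 0 of the 5 most like Igfbp7 did. Group means of the 10 genes moved by -4.84 to 6.31% with spike-in scaling and -4.64 to 1.29% by library totals, within 1 SD. On simulated data with 200 of 14860 genes changed, edgeR recovered 30.5% of genes changed 1.5-fold and 84.5% of those changed 2-fold. None of the changed genes was as low as Igfbp2. That many changes make the adjusted threshold easier to pass than here, where 1 gene was called. These rates limit what the calls of 0 can show, and may overstate what could be called here.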
